A study of Mus musculus with 12 samples.

Results

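The genes of the respiratory chain and of ATP synthase were examined in leukocytes sorted from mouse melanomas after T cell transfer. Members were chosen by symbol alone, as gene expression features that begin with Nduf, Uqcr or Atp5, with Cox followed by a digit from 4 to 8, the genes Sdha, Sdhb, Sdhc and Sdhd, and the mitochondrial genes for the Nd, Co, Cytb and Atp subunits. Symbols marked as pseudogenes were left out, which removed Ndufb1-ps. The choice gave 106 of the 32285 genes in the matrices, 93 encoded in the nucleus and 13 in mitochondrial DNA.

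The hosts were 6 mice of the strain B6.129S7-Rag1tm1Mom/J, which lack Rag1, so that hosts form no lymphocytes with rearranged receptors but keep NK and myeloid cells. All carried intradermal B16-F10 tumours, a transplantable melanoma, and all were given, by the retro-orbital route, 1000000 CD8+ T cells of Pmel Thy1.1 origin each, whose receptor recognises a melanocyte protein. In 3 mice the T cells had been cultured with CAL-101 (idelalisib, which blocks the PI3K isoform delta) and in the 3 control mice with vehicle. The labels give the drug exposure for the transferred cells in culture, and none for the hosts. Live CD45.2+ cells of part of each tumour were profiled with a droplet-based 3′ assay that counts RNA molecules as unique molecular identifiers (UMIs). The sources used here do not give host age or sex, the T cell donors, or the dose and duration of the culture.

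Complex I takes electrons from NADH and complex II from succinate, complex III passes them from ubiquinol to cytochrome c, and complex IV hands them to oxygen. The proton gradient that complexes I, III and IV build drives complex V, the ATP synthase. Most subunits are encoded in the nucleus and imported, while mitochondrial DNA encodes core subunits of complexes I, III, IV and V and none of complex II. In T cells the chain is known for supporting activation and for the persistence of memory cells.

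The 6 libraries held 45477 cells and between 75716841 and 97933109 RNA UMIs each. The median cell held 7508, 8977 and 8504.5 UMIs in CAL-101 mice and 8095, 7694 and 6767 UMIs in control mice. The deposited cell tables give each cell 1 of 14 cluster numbers and a cell type label. Transferred T cells were read as the T-labelled cells of clusters 1 to 5, which numbered 3327, 5928 and 5208 in CAL-101 mice and 5271, 3235 and 5549 in control mice. Host NK cells were read as the NK-labelled cells of clusters 0, 7, 9 and 13, which numbered 1719, 415 and 734 in CAL-101 mice and 1978, 3134 and 2236 in control mice. Marker genes fitted these labels: the 5 T cell markers summed in the T cells to 3016 CPM (UMIs scaled to a total of 1000000 RNA UMIs), and in the NK cells to 185 CPM, and the 6 NK markers to 92.8 CPM in the T cells and 4560 CPM in the NK cells. In the T cells neutrophil markers summed to 2.57 CPM and melanoma markers to 3.83 CPM. Red-cell markers in the NK cells reached 81.0 CPM in control mouse 1 and at most 1.28 CPM in every other mouse. Pairs of libraries shared 8 to 31 cell barcodes. The p-values below measure the spread between these 6 mice, each of which gave 1 library.

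Most mitochondrial genes were more abundant than any nuclear member. In T cells mt-Co3, which encodes a core subunit of complex IV, stood at 9288 ± 875 CPM (SD, n = 6 mice). The ATP synthase gene mt-Atp6 stood at 8777 ± 1053 CPM, and mt-Co1, the catalytic subunit of complex IV, at 8774 ± 757 CPM. These levels lay more than 10-fold above the most abundant nuclear member. The other complex IV gene of mitochondrial DNA, mt-Co2, stood at 7208 ± 625 CPM, and mt-Cytb, the cytochrome b of complex III, at 4000 ± 777 CPM. The 7 complex I genes were lower and uneven, from mt-Nd1 at 2788 ± 434 CPM to mt-Nd6 at 40.6 ± 6.48 CPM, the one member transcribed from the other strand of mitochondrial DNA. UMIs tag transcripts near a poly(A) stretch and were not divided by transcript length. Counts of mt-Atp8 (60.1 ± 10.7 CPM) and mt-Nd4l (152 CPM) are uncertain, since these genes overlap mt-Atp6 and mt-Nd4. Nuclear copies of mitochondrial genes could also share reads with them.

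Among nuclear members the structural subunits of complexes IV and V led. In T cells Cox8a had 752 ± 28.7 CPM and Cox4i1 747 ± 43.5 CPM, both small subunits of complex IV, and their levels did not differ beyond their spread over the 6 mice. Of complex V, Atp5b, the catalytic beta subunit, had 608 ± 38.4 CPM, Atp5e, the epsilon subunit, 585 ± 47.1 CPM, and Atp5g2, a gene for the c subunit of the rotor ring, 566 ± 22.5 CPM. These 3 also lay within each other's spread. Uqcrh, the hinge protein, led complex III at 498 ± 10.8 CPM. In complex I, Ndufa13 led at 362 ± 14.4 CPM, followed by Ndufa4 at 333 ± 74.7 CPM, the most variable of the abundant nuclear members, and Ndufb7 at 310.2 ± 9.88 CPM. Ndufa4 is named for complex I but is now known as a subunit of complex IV. The complex II genes lay below the leading genes of every other complex: the iron-sulphur subunit gene Sdhb had 147 ± 9.02 CPM, the flavoprotein gene Sdha 73.7 ± 5.07 CPM, and the membrane anchor genes Sdhd 77.1 CPM (68.2 to 92.3 CPM over the 6 mice) and Sdhc 49.9 ± 2.82 CPM. The 8 Ndufaf genes, whose products assemble complex I, ranged from 11.1 CPM (Ndufaf1) to 46.1 CPM (Ndufaf8).

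**Figure D1:**
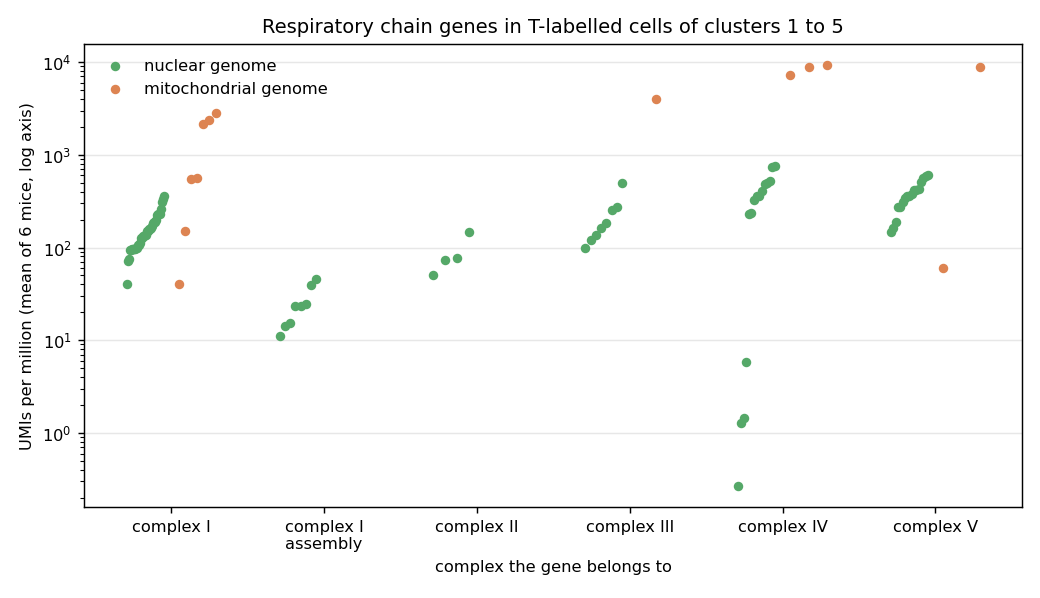
Level of each member in T-labelled cells of clusters 1 to 5, as the mean of 6 mice in CPM on a log axis, by complex and by genome. The mitochondrial genes of complexes III and IV lie above every nuclear gene, with mt-Co3 at 9288 CPM against 752 CPM for Cox8a, and the assembly factors lie at 11.1 to 46.1 CPM.

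Versions of subunits known from single tissues or from low oxygen gave few UMIs. In T cells Cox4i2, the form of subunit 4 known from lung and low oxygen, had 5.86 ± 1.14 CPM beside 747 CPM for Cox4i1. Cox7a1, a heart and muscle form, had 1.28 ± 0.33 CPM, and Cox6b2, a testis form, 1.44 ± 0.29 CPM. The muscle form Cox6a2 gave 88 UMIs in the T cells, Cox8b 7, the hypoxia gene Ndufa4l2 3, Cox7b2 2 and Cox8c 0. The 3 genes for the c subunit of ATP synthase differed in this respect, since Atp5g1 and Atp5g3 were also abundant: Atp5g1 averaged 319.7 ± 23.2 CPM in CAL-101 mice and 298 ± 22.1 CPM in control mice, and Atp5g3 279 ± 21.0 CPM in CAL-101 mice and 272 ± 15.2 CPM in control mice (SD, n = 3 each).

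Promoter sequence was available for 76 of the 93 nuclear members in RefSeq (GRCm38.p6), as 250 bases before to 50 bases after the start, and was searched on both strands. A gene counted if any of its windows held a match. The NRF1 motif, GCGC and TGCGC with any base between them, is bound by nuclear respiratory factor 1. It was found in 19 of the 76 (25.0%), beside 5.19% of 27025 RefSeq genes, expressed here or not, with windows of the same length. The ETS motif CCGGAAG, bound by the GABP complex, was also found in 19 (25.0%), beside 9.93% of all these genes. The YY1 motif AAGATGGCG was found in 8 (10.5%) beside 1.64%, and the TATA motif TATAAA in 8 (10.5%) beside 15.7%. Both the NRF1 and the ETS motif were found in 4 members (5.26%), beside 1.12% of all these genes. Neither was found in 42 (55.3%), beside 86.0%. These are matches of letters, not measured binding. The stretches below are from members that rank high in T cells or that changed there (Atp5j), each of 100 bases that lie upstream of the start, with the match in capitals (CTTCCGG is the ETS motif read on the other strand).
Atp5g2 (NRF1 match), chr15:102671048-102671147, minus strand: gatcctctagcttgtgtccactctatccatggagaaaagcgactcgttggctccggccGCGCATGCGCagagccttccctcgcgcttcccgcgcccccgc
Atp5e (ETS match), chr2:174464151-174464250, minus strand: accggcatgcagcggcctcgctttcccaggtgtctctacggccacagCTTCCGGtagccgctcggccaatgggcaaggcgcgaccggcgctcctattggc
Uqcrh (ETS match), chr4:116075071-116075170, minus strand: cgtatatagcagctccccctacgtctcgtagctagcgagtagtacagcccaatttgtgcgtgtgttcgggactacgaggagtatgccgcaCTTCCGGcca
Atp5j (ETS match), chr16:84834985-84835084, minus strand: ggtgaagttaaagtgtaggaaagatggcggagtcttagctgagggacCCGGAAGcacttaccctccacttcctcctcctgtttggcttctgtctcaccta

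The 13 mitochondrial members together took a share of RNA that differed widely between deposited clusters. They took 3.24% ± 0.140, 3.23% ± 0.216 and 3.39% ± 0.251 of RNA UMIs in T cell clusters 2, 3 and 5, but 12.2% ± 1.88 in cluster 1, 14.5% ± 1.61 in cluster 4 and 37.7% ± 5.28 in cluster 6 (SD, n = 6 mice). Clusters 0, 7 and 9, called NK clusters here, were 85.5%, 92.2% and 62.4% NK-labelled, and nearly all their other cells were T-labelled. Over all their cells they were split in a like way, with 2.43% ± 0.189 in cluster 0, 3.05% ± 0.247 in cluster 7 and 9.62% ± 1.73 in cluster 9. Over the whole T cell set the share was 4.67% ± 0.483, and over the NK set 2.78% ± 0.209. The clusters were built from these cells and genes, so differences between clusters are given as descriptions with no test.

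In clusters 1, 4 and 9 the nuclear members were low instead. To keep mitochondrial UMIs out of the denominator, nuclear members were set against the non-mitochondrial UMIs. They took 2.22% ± 0.103, 2.11% ± 0.0965 and 2.18% ± 0.0996 of those UMIs in clusters 2, 3 and 5, but 0.993% ± 0.0384 in cluster 1 and 1.01% ± 0.0435 in cluster 4. In the NK clusters, over all cells of each, they took 1.75% ± 0.0683 in cluster 0 and 1.03% ± 0.0740 in cluster 9. Cluster 6 stood apart from both patterns, since its nuclear share of 2.23% ± 0.222 was as high as in cluster 3 while its mitochondrial share was the highest of all. Cells of these clusters held little RNA: the median cell had 2823 UMIs in cluster 1, 4762 in cluster 4, 2066.5 in cluster 9 and 865.5 in cluster 6, against 25738 in cluster 2 and 14660 in cluster 3. Cytosolic ribosomal protein genes took 12.7% of non-mitochondrial UMIs in cluster 1 and 10.9% in cluster 4, beside 24.5% in cluster 3, and the nuclear RNA Malat1 took 1.60% in cluster 1, 1.28% in cluster 4 and 0.479% in cluster 3. Between clusters 1 and 4 on one side and cluster 3 on the other, depth, ribosomal and Malat1 shares moved with the nuclear respiratory share, and their part in it was not tested. Cluster 6 had the fewest UMIs per cell of these clusters beside its nuclear share of 2.23%, and the part of depth there was not tested either.

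The low nuclear share of cluster 1 ran through almost the whole set. Of 87 nuclear members with at least 200 UMIs in the pair, 80 were lower in cluster 1 than in cluster 3 in all 6 mice and 0 were higher in all 6, with a median log2 ratio of -1.12. Atp5g1 (116 CPM in cluster 1 and 336 CPM in cluster 3, both per non-mitochondrial UMI) and Cox5a (209 CPM in cluster 1 and 599 CPM in cluster 3) had the lowest ratios, -1.53 and -1.52. Among the 7 exceptions Ndufs1, the largest subunit of complex I, had a ratio of 0.40 and Cox4i2 of 0.51, each higher in 5 of 6 mice. Ndufaf5 (0.11), Ndufs4 (0.05) and Sdha (-0.06) were nearly level. All 13 mitochondrial members were higher in cluster 1 in all 6 mice, from mt-Atp8 at a log2 ratio of 1.45 to mt-Nd6 at 2.29, with a median of 1.86.

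Cluster 4 set against cluster 3 gave the same shape, with a nuclear median of -1.01, 80 of 87 members lower in all 6 mice and a mitochondrial median of 2.19. Here 4 nuclear members were higher in all 6 mice: Cox4i2 (log2 ratio 0.92), the assembly factor Ndufaf2 (0.51), Ndufs1 (0.46) and Sdha (0.20). Over all cells of the NK clusters, 64 of 82 nuclear members were lower in cluster 9 than in cluster 0 in all 6 mice. The nuclear median was -0.81 and the mitochondrial median 1.92. T-labelled cells made up 37.5% of cluster 9 and 14.5% of cluster 0. For cluster 6 against cluster 3 the nuclear median was 0.06 and the mitochondrial median 3.49.

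**Figure D2:**
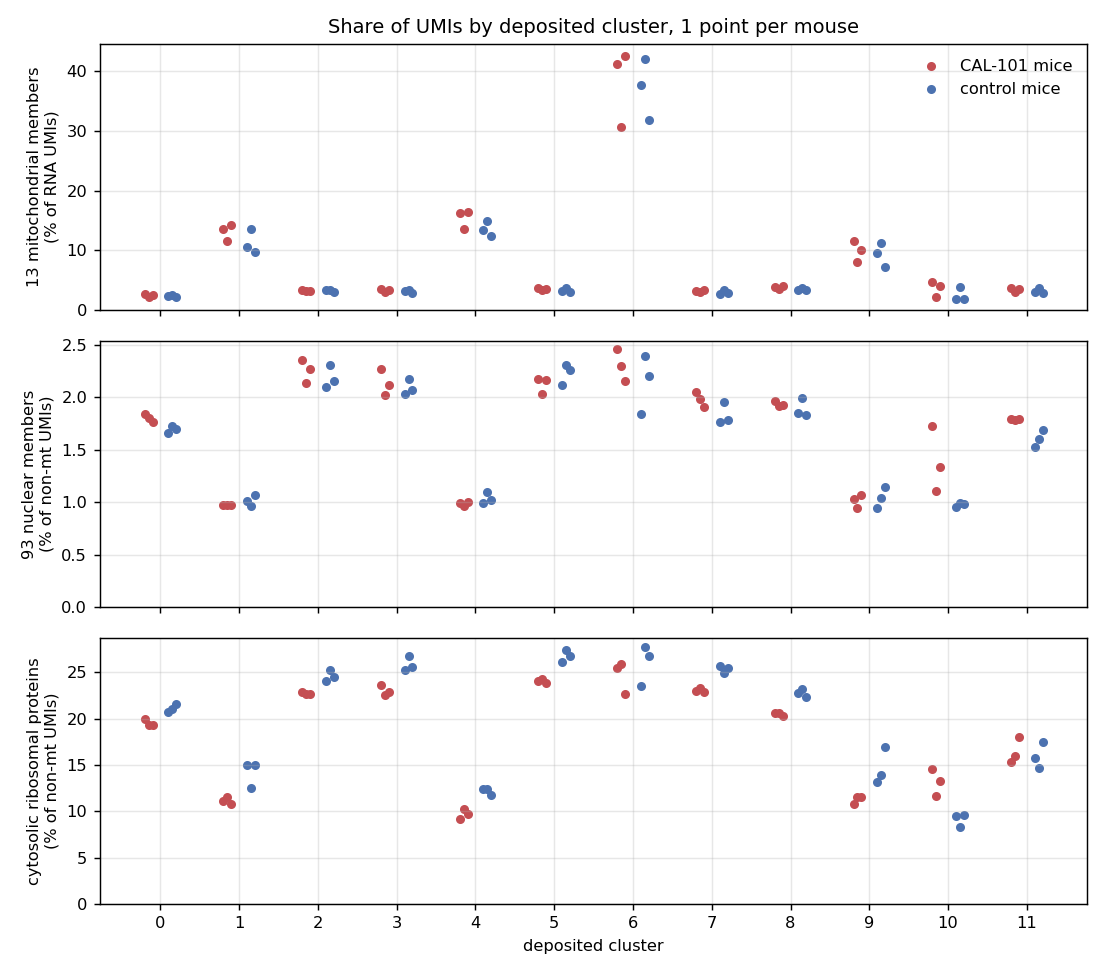
Share of UMIs per deposited cluster, 1 point per mouse, CAL-101 mice left of control mice, for the 13 mitochondrial members (percent of RNA UMIs, top), the 93 nuclear members (percent of non-mitochondrial UMIs, middle) and cytosolic ribosomal protein genes (percent of non-mitochondrial UMIs, bottom). Clusters 1, 4 and 9 are high in mitochondrial and low in nuclear members, and cluster 6 is high in mitochondrial members with a nuclear share of 2.23%.

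Cells of the T cell set were then split by their mitochondrial share alone, and the nuclear share was lower above 6%. T cells with under 2% of UMIs from mitochondrial members had a nuclear share of 2.20% ± 0.158, and those with 2 to 4% had 2.19% ± 0.100 (SD, n = 6 mice). The share was 1.95% ± 0.141 at 4 to 6%, 1.29% ± 0.101 at 6 to 10% and 0.917% ± 0.0320 at 10 to 20%. It did not drop further above 20%, at 1.03% ± 0.0537. Each of these classes held at least 114 cells in every mouse. They overlap with the clusters, since the median cell had 13.2% mitochondrial UMIs in cluster 1 and 16.3% in cluster 4, against 3.08% in cluster 2, 2.90% in cluster 3 and 3.14% in cluster 5. Depth and ribosomal genes moved along: the median UMIs of a mouse's T cells lay between 16461 and 23226 at 2 to 4% and between 2904 and 4001.5 at 10 to 20%, and cytosolic ribosomal protein genes took 24.4% ± 1.21 and 9.33% ± 0.341 of non-mitochondrial UMIs there. Their part in the nuclear share was not tested. In NK cells the nuclear share was 1.80% ± 0.0762 under 2%, 1.90% ± 0.0885 at 2 to 4% and 1.61% ± 0.144 at 4 to 6%. It was 1.18% ± 0.0704 at 6 to 10% and 0.983% ± 0.109 at 10 to 20%, classes that held as few as 13 and 11 cells in a mouse.

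Between the other clusters the nuclear medians were closer to 0. Against cluster 3, cluster 2 had 45 of 88 nuclear members higher and 13 lower in all 6 mice, led by Ndufab1, the mitochondrial acyl carrier protein (log2 ratio 0.40), Ndufa4 (0.40) and Ndufv1, the NADH-binding subunit (0.38), while Cox4i2 was lower (-0.78). Cluster 5 had 10 of 87 nuclear members higher than in cluster 3 and 3 lower in all 6 mice, among them Ndufa4 (0.51), Sdhb (0.23) and Atp5j (0.17) higher and Cox4i2 lower (-0.89). Cluster 8, in which 57.9% of cells are NK-labelled and 42.1% T-labelled, had 48 of 85 nuclear members higher and 7 lower than cluster 0 in all 6 mice, and all 13 mitochondrial members higher (median 0.63). Ndufab1 (0.75) and Atp5b (0.58) were higher there, and Ndufa6 (-0.59) and Uqcrh (-0.35) lower. Set against NK cells, T cells had 56 of 88 nuclear members higher and 13 lower in all 6 mice (median 0.25), and all 13 mitochondrial members higher (median 0.81). The low-RNA clusters 1 and 4 held 38.6 to 51.7% of a mouse's T cells, and the low-RNA cluster 9 held 5.58 to 8.81% of its NK cells. Without these clusters and the small cluster 13, a set added after seeing the data, the mitochondrial median was 0.42, with 12 of 13 higher in all 6 mice, and the nuclear median 0.33, with 64 of 88 higher and 5 lower. The highest nuclear ratio was that of Cox4i2, at 6.15 ± 1.21 CPM in T cells and 1.34 ± 0.367 CPM in NK cells per non-mitochondrial UMI. Ndufs4, an accessory subunit of complex I, had the lowest, at 156 ± 8.74 CPM in T cells and 218 ± 6.49 CPM in NK cells. The T cell set keeps the cycling cluster 2, while the NK set leaves out the cycling cluster 8. Cluster 2 over cluster 8 gave a mitochondrial median of -0.12, with 0 of 13 higher and 4 lower in all 6 mice. Its nuclear median was 0.26, with 65 of 88 higher and 1 lower.

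Transfer of CAL-101-treated T cells was compared with transfer of vehicle-treated T cells in 3 + 3 mice, first in the T cells. The set differed in its cluster makeup. Cluster 3 held 5.17, 11.5 and 8.20% of its cells in CAL-101 mice and 35.97, 25.4 and 35.2% in control mice, and cluster 5 held 26.6, 23.5 and 24.4% in CAL-101 mice and 3.40, 2.84 and 1.93% in control mice. Cluster 2 held 22.5, 23.5 and 28.4% in CAL-101 mice and 22.03, 20.1 and 18.3% in control mice. None of these shares overlaps between the groups, so a fold change over the set holds both differences within clusters and differences in makeup. Values within clusters or ratios between clusters are given beside the called members. Few members differed. By the edgeR quasi-likelihood test with adjustment over all 16450 genes tested, 6 of the 88 nuclear members tested passed the threshold of 0.05, 4 higher and 2 lower in CAL-101 mice (6.82%), beside 17.3% of all genes, of which 8.41% were higher and 8.92% lower. The other 5 nuclear members did not pass the filter on low counts. The median log2 fold change of the nuclear members was 0.02, beside -0.00 over all genes, and 54 of 88 were positive. Of the 13 mitochondrial members, 1 passed. CPM values of CAL-101 and control mice did not overlap for 26 nuclear members (29.5%), beside 37.9% of all genes. Fold changes use edgeR's TMM scaling, and printed CPM use plain UMI totals. Scaled to plain totals, calls over all genes split into 1875 higher and 1135 lower in CAL-101 mice (1383 and 1467 with TMM), the median of all genes moved to 0.05, and 7 nuclear members were higher and 2 lower.

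Ndufa4 rose in T cells. It had 423, 336 and 412 CPM in CAL-101 mice and 247, 325 and 255 CPM in control mice, a log2 fold change of 0.46 (SE 0.13, adjusted p = 0.0441 by edgeR). CAL-101 mouse 2 and control mouse 2 lie close together and the other 4 mice apart. Atp5j, coupling factor 6 in the stalk of ATP synthase, had 420.4, 391 and 433 CPM in CAL-101 mice and 325, 361 and 323 CPM in control mice, and also rose (0.26, SE 0.07, adjusted p = 0.0467). Its groups do not overlap, again with control mouse 2 nearest to the CAL-101 mice. Both genes were also higher in the clusters in which CAL-101 mice had more cells: Ndufa4 had a log2 ratio of 0.51 in cluster 5 and 0.40 in cluster 2 over cluster 3, and Atp5j of 0.17 and 0.19, each higher in all 6 mice. Within clusters Ndufa4 had a log2 fold change of 0.38 in cluster 2, 0.19 in cluster 3 and -0.01 in cluster 5, none of which passed, while it passed in cluster 1. Atp5j had 0.21, 0.16 and 0.03 in clusters 2, 3 and 5 and passed in no T cell cluster. The part of the makeup in the fold changes over the set was not tested.

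Uqcrfs1, the Rieske iron-sulphur protein that passes electrons within complex III, fell. It had 127, 116 and 130.5 CPM in CAL-101 mice and 150.3, 150.2 and 147 CPM in control mice, a log2 fold change of -0.31 (SE 0.06, adjusted p = 0.0153 by edgeR). The control values lie close together and all above the CAL-101 values. It was also lower within each of clusters 1 to 5, with log2 fold changes from -0.47 to -0.28, and passed in clusters 1, 2, 4 and 5. Ndufa6, an accessory subunit of complex I, had 126, 126 and 128 CPM in CAL-101 mice and 139, 144 and 150.1 CPM in control mice and fell by 0.24 on the log2 scale (adjusted p = 0.0215). Ndufa6 was lower in cluster 2 than in cluster 3 in all 6 mice (log2 ratio -0.34), and its ratio was 0.04 in cluster 5 over cluster 3. Of the less abundant members, Ndufaf6, a complex I assembly factor, averaged 17.3 ± 0.66 CPM in CAL-101 mice and 13.4 ± 0.659 CPM in control mice (SD, n = 3 each; 0.32, adjusted p = 0.0193 by edgeR). All 8 Ndufaf genes had positive fold changes, and Ndufaf6 was the one that passed. Cox7a1 had 1.46, 1.73 and 1.51 CPM in CAL-101 mice and 0.998, 0.891 and 1.09 CPM in control mice (0.61, adjusted p = 0.0283), a rise in a gene at about 1 CPM. Cox7a1 was lower in cluster 2 than in cluster 3 in all 6 mice (log2 ratio -0.54). Ndufaf6 had log2 ratios of 0.20 in cluster 2 and 0.07 in cluster 5 over cluster 3. The part of the makeup in the fold changes of Ndufa6, Ndufaf6 and Cox7a1 was not tested.

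Most of the abundant nuclear members did not pass. Cox8a had a log2 fold change of -0.00, Atp5b of 0.02 and Uqcrh of -0.07. Cox4i1 averaged 722 ± 32.4 CPM in CAL-101 mice and 772 ± 42.2 CPM in control mice (log2 fold change -0.14, adjusted p = 0.18 by edgeR). Of complex II 0 of 4 members passed, and 0 of 4 had an unadjusted p under 0.05 by edgeR, as 32.2% of all genes did. Sdha averaged 77.0 ± 3.11 CPM in CAL-101 mice and 70.4 ± 4.69 CPM in control mice. As a set, nuclear members made up 2.11, 1.96 and 2.11% of non-mitochondrial UMIs in CAL-101 mice and 1.94, 2.05 and 1.96% in control mice, and these values overlap.

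These T cell calls depended on which mice were in the fit. With edgeR and 1 mouse left out, the count of nuclear members passing was 2 without CAL-101 mouse 1, 4 without CAL-101 mouse 2 and 1 without CAL-101 mouse 3, where 9.80%, 14% and 8.24% of all genes passed. It was 0 without control mouse 1, 17 without control mouse 2 and 0 without control mouse 3, where 8.61%, 22.4% and 7.62% of all genes passed. Each of the 6 nuclear members and mt-Co1 kept its sign in every alternative run, and Uqcrfs1 was the most often called, in 14 of 17. The low-RNA clusters 1 and 4 held 45.7, 41.4 and 39.0% of these cells in CAL-101 mice and 38.6, 51.7 and 44.5% in control mice, which overlap, unlike the shares of clusters 2, 3 and 5. Fitted on clusters 2, 3 and 5 alone, 2 nuclear members were higher and 6 lower, with 16.7% of all genes passing.

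In mitochondrial DNA, mt-Co1 was the member that fell. In T cells it had 8693, 8069 and 7829 CPM in CAL-101 mice and 9129, 9907 and 9017 CPM in control mice, a log2 fold change of -0.24 (SE 0.07, adjusted p = 0.0448 by edgeR). The groups do not overlap, but the call was lost in each of the 6 fits that left out 1 mouse. It was also lower in cluster 2 than in cluster 3 in all 6 mice (log2 ratio -0.14), and its ratio was 0.02 in cluster 5 over cluster 3. The part of the makeup in its fall was not tested. The other 12 did not pass: mt-Co2 and mt-Co3 were at -0.09 and -0.03, and mt-Nd3 (0.36), mt-Nd2 (0.27), mt-Nd4 (0.22) and mt-Cytb (0.21) had the highest fold changes. As a share of mitochondrial members' UMIs, mt-Co1 made up 17.4% ± 0.91 in CAL-101 mice and 20.4% ± 1.63 in control mice, without overlap (SD, n = 3 each). These shares are parts of a whole, so a lower share of mt-Co1 goes with higher shares elsewhere. By CPM, mt-Co1 was the 1 member of 13 without overlap (7.69%), beside 37.9% of all genes. By share, the groups did not overlap for 5 others. Of these mt-Co2 had a lower share in CAL-101 mice, at 15.02% ± 0.117 in CAL-101 mice and 15.9% ± 0.487 in control mice. The other 4 had a higher share: mt-Cytb, at 9.17% ± 0.499 in CAL-101 mice and 7.84% ± 0.742 in control mice, mt-Nd3, at 1.33% ± 0.0726 in CAL-101 mice and 1.01% ± 0.197 in control mice, mt-Nd2, at 5.05% ± 0.13 in CAL-101 mice and 4.13% ± 0.36 in control mice, and mt-Nd4, at 5.51% ± 0.0495 in CAL-101 mice and 4.67% ± 0.267 in control mice.

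Host NK cells, which were not exposed to the drug in culture, came from the same tumours. Over 13522 genes tested with edgeR, 213 passed (1.58%), and 0 of 89 nuclear members did. At an unadjusted p under 0.05 there were 21 higher and 3 lower nuclear members, beside 9.47% of all genes higher and 8.27% lower, and DESeq2 called 8 nuclear and 4 mitochondrial members beside 3.13% of all genes. Without CAL-101 mouse 2 edgeR called 2 nuclear members beside 1.95% of all genes, and without control mouse 2 it called 14 beside 4.03%. Over all genes the calls split into 113 higher and 100 lower, and with plain totals into 127 and 70. The median nuclear log2 fold change was 0.08, beside -0.00 over all genes, with 66 of 89 positive, and 33 nuclear members (37.1%) did not overlap between the groups, beside 23.4% of all genes. Ndufa4 averaged 312 ± 51.3 CPM in CAL-101 mice and 224 ± 23.1 CPM in control mice (SD, n = 3 each; log2 fold change 0.46, adjusted p = 0.0554 by edgeR), which misses the threshold. Cox7a2l, known from work on supercomplexes of complexes III and IV, averaged 235 ± 8.28 CPM in CAL-101 mice and 292 ± 21.6 CPM in control mice (-0.33, adjusted p = 0.0569 by edgeR). Ndufa6 averaged 152 ± 7.05 CPM in CAL-101 mice and 181 ± 5.37 CPM in control mice (-0.27, adjusted p = 0.0599). The share of NK cells in the low-RNA cluster 9 was 5.58, 7.95 and 6.95% in CAL-101 mice and 8.59, 8.10 and 8.81% in control mice; its part in these values was not tested.

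The mitochondrial pattern of the NK cells had mt-Co1 as its called member as well. It had 5003, 5125 and 5451 CPM in CAL-101 mice and 6541, 6577 and 6202 CPM in control mice, and fell by 0.33 on the log2 scale (SE 0.07, adjusted p = 0.0453 by edgeR). All 3 control values lie above all 3 CAL-101 values. The call was kept in 10 of 16 alternatives, and among those that left out 1 mouse it was kept without CAL-101 mouse 2 or control mouse 2 and lost without each of the other 4. At the other end stood mt-Nd3 (0.62), mt-Nd2 (0.48), mt-Cytb (0.39) and mt-Nd4 (0.34), none of which passed. Of the 13 members 5 were higher and 1 lower at an unadjusted p under 0.05 by edgeR, beside 9.47% and 8.27% of all genes. For mt-Nd2 the CPM averaged 1338 ± 161 in CAL-101 mice and 944 ± 176 in control mice (adjusted p = 0.0707).

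**Figure D3:**
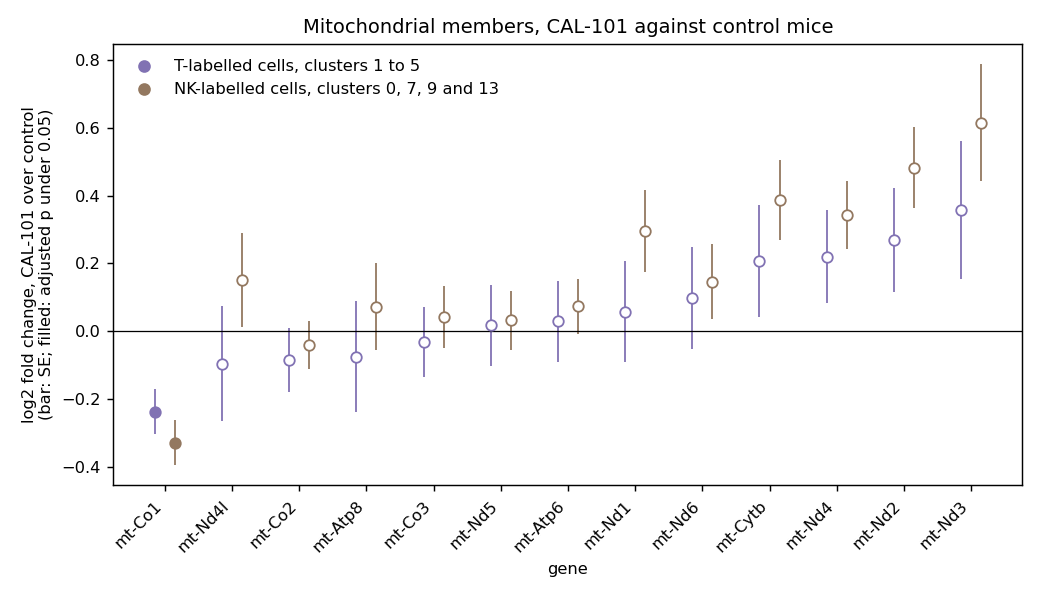
Log2 fold change of each mitochondrial member, CAL-101 over control mice, with its SE, in T-labelled cells of clusters 1 to 5 and in NK-labelled cells of clusters 0, 7, 9 and 13. Filled points passed the threshold; these are mt-Co1 at -0.24 in T cells and -0.33 in NK cells, and mt-Nd3 is highest in both.

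The balance between mt-Co1 and mt-Nd2 was then read as a ratio within each mouse, which needs no scaling between libraries. This ratio was chosen after the values were seen and is given with no test. In T cells there were 3.27, 3.76 and 3.30 mt-Co1 UMIs per mt-Nd2 UMI in CAL-101 mice and 5.39, 4.08 and 5.50 in control mice. In NK cells there were 3.41, 4.43 and 3.93 in CAL-101 mice and 7.67, 5.73 and 7.45 in control mice. Control mouse 2 is the control nearest to the CAL-101 mice in both. The ratio was lower in CAL-101 mice, without overlap, in 12 of the 12 clusters that every mouse filled with at least 20 cells. These clusters come from the same 6 libraries and are not independent. Per mt-Cytb UMI, and per mt-Co3 UMI, mt-Co1 was lower on average in 12 of 12 clusters and did not overlap in 8.

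**Figure D4:**
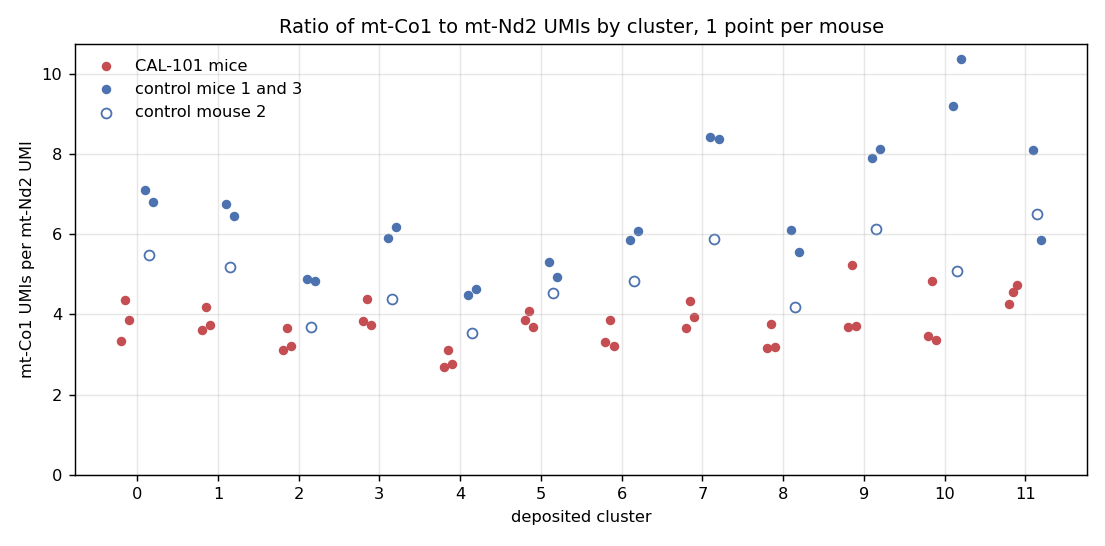
UMIs of mt-Co1 per UMI of mt-Nd2 in each deposited cluster, 1 point per mouse, CAL-101 mice left of control mice, with control mouse 2 drawn open. All CAL-101 points lie below the control points of their cluster; in clusters 2 and 3 control mouse 2 is just above the highest CAL-101 mouse (3.69 against 3.65 and 4.388 against 4.372).

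Whether the CAL-101 effect differed between T and NK cells was tested with limma on the difference within each mouse. Of 101 members tested 0 passed, beside 1.29% of 13346 genes, and 4 members had an unadjusted p under 0.05, beside 15.9% of all genes: mt-Nd3 (-0.26), mt-Nd4l (-0.25), Atp5k (-0.24) and mt-Nd1 (-0.24), each lower in T than in NK cells on the log2 scale. The lowest adjusted p was 0.233. With a prior count of 0.5 in place of 2, 0 passed as well. The members that passed in T cells and not in NK cells are therefore not shown to differ between them.

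Fits within single clusters, each adjusted on its own, called nuclear members 39 times in 1013 tests (3.85%), beside 5.77% of the tests of all genes, 13 higher and 26 lower in CAL-101 mice, and mitochondrial members 6 times in 155 tests (3.87%), 3 each way. The 39 calls became 17 without CAL-101 mouse 1, 13 without CAL-101 mouse 3 or control mouse 1, 75 without control mouse 2 and 6 without control mouse 3. Of the tests of all genes 3.46% passed without CAL-101 mouse 1, 4.43% without CAL-101 mouse 2, 2.24% without CAL-101 mouse 3, 2.70% without control mouse 1, 7.57% without control mouse 2 and 2.23% without control mouse 3. The 6 mitochondrial calls became 11 without CAL-101 mouse 2, 57 without control mouse 2 and 1 without each of the other 4 in turn. Averages below are means ± SD of 3 mice.

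In NK cluster 0 the calls were mostly rises: 8 nuclear members were higher and 2 lower of 88 tested, beside 3% and 2.53% of all genes. Ndufa4 had 404, 350.1 and 360.5 CPM in CAL-101 mice and 241, 280.1 and 255 CPM in control mice there (0.50, SE 0.07, adjusted p = 0.00213 by edgeR), with no overlap. Ndufab1 averaged 97.4 ± 5.20 CPM in CAL-101 mice and 74.4 ± 3.41 CPM in control mice (0.37, adjusted p = 0.0084), and Uqcrb, a small subunit of complex III, 196 ± 10.6 CPM in CAL-101 mice and 154 ± 8.74 CPM in control mice (0.32, adjusted p = 0.0145). The other rises were Ndufc1, Ndufs5, Cox6a1, Atp5j2 and Atp5j, and Ndufa6 (-0.31) and Cox7a2l (-0.28) fell. Of the mitochondrial members mt-Nd3 (0.57) and mt-Nd2 (0.44, adjusted p = 0.0267) rose and mt-Co1 fell (-0.31, adjusted p = 0.00579), although CPM values of mt-Nd2 and mt-Nd3 overlapped between the groups. In NK cluster 7 (1.32% of genes called) Cox7a2l averaged 217 ± 9.72 CPM in CAL-101 mice and 288 ± 13.6 CPM in control mice (-0.45, adjusted p = 0.029), with mt-Nd2 at 0.58 and mt-Co1 at -0.31 also called.

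In the low-RNA T cell clusters the calls were mostly falls. Cluster 1 had 1 higher and 9 lower of 86 nuclear members, beside 5.54% and 6.13% of all genes. Ndufa6 had 67.6, 75.0 and 68.4 CPM in CAL-101 mice and 106.5, 81.7 and 113 CPM in control mice (-0.55, adjusted p = 0.0117 by edgeR), and the groups do not overlap. Ndufb10, an accessory subunit of complex I (-0.47, adjusted p = 0.0121), Uqcrfs1 (-0.47, adjusted p = 0.0211) and Uqcrh (-0.43, adjusted p = 0.0233) fell with it, while Ndufa4 rose (0.40, adjusted p = 0.0319). Cluster 4 had 0 higher and 8 lower of 86, beside 3.53% and 4.75% of all genes. There Atp5g2 averaged 174 ± 3.67 CPM in CAL-101 mice and 227 ± 11.4 CPM in control mice (-0.41, adjusted p = 0.00586), followed by Ndufa6 (-0.45), Ndufb10 (-0.40) and Cox7a2l (-0.42). The median nuclear fold change was -0.09 in cluster 1 and -0.12 in cluster 4. The mitochondrial members had medians of 0.24 and 0.18 there, with 12 of 13 positive in each cluster and 0 called; their part in the nuclear values was not tested. Cytosolic ribosomal protein genes made up 11.1, 11.5 and 10.7% of non-mitochondrial UMIs in CAL-101 mice and 14.99, 12.5 and 15.04% in control mice in cluster 1. In cluster 4 they made up 9.14, 10.2 and 9.66% in CAL-101 mice and 12.4, 12.4 and 11.8% in control mice. Their part in the falls was not tested.

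Cluster 5, which is not a low-RNA cluster, had a like nuclear median of -0.13, with 22 of 88 nuclear members positive, and 4 lower, beside 2.78% of all genes. Its control side was small, with 179, 92 and 107 cells in control mice against 886, 1393 and 1271 in CAL-101 mice. Uqcrfs1 had 120.4, 117 and 124 CPM in CAL-101 mice and 159.8, 165 and 152.5 CPM in control mice there (-0.45, adjusted p = 0.0077 by edgeR), well apart, and Ndufv1 (-0.52, adjusted p = 0.0112), Atp5g2 (-0.29) and Ndufa10 (-0.37) fell with it. Clusters 2 and 3 had few calls and nuclear medians of -0.01 and -0.02. In cluster 2 (12.6% of genes called) Uqcrfs1 (-0.30, adjusted p = 0.0325) and mt-Co1 (-0.22, adjusted p = 0.034) fell. In cluster 3 (6.76%) the one call was Cox7a2l, at 242 ± 10.2 CPM in CAL-101 mice and 292 ± 13.3 CPM in control mice (-0.34, adjusted p = 0.0238). In cluster 6 (1.4%) the one call was Ndufa4, with 316, 334 and 307 CPM in CAL-101 mice and 133, 197 and 211 CPM in control mice (0.81, SE 0.18, adjusted p = 0.0164). Cluster 6 held red-cell markers at 23798, 0 and 6158 CPM in CAL-101 mice and 11387, 27.7 and 0 CPM in control mice.

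Clusters 8, 9 and 11 gave 0 calls by edgeR among the members, beside 0.459%, 0.628% and 0% of all genes. At an unadjusted p under 0.05 10 of 86 nuclear members passed in cluster 8, 9 of 80 in cluster 9 and 5 of 81 in cluster 11, of which 2, 4 and 3 were higher, beside 12.7%, 11.3% and 6.76% of all genes. Of 13 mitochondrial members 5, 4 and 1 passed there, of which 4, 4 and 1 were higher, beside the same shares of all genes. DESeq2 called 1, 0 and 1 nuclear members, beside 1.13%, 0.95% and 0.273% of all genes. Of mitochondrial members DESeq2 called 2 in cluster 8.

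In cluster 10, led by neutrophil markers, 3 of 79 nuclear members rose, beside 2.56% of all genes. Atp5b had 557, 362 and 391 CPM in CAL-101 mice and 199, 195 and 207 CPM in control mice (1.03, adjusted p = 0.0258 by edgeR), Ndufa4 429, 155 and 259 CPM in CAL-101 mice and 99.8, 103 and 85.2 CPM in control mice (1.44, adjusted p = 0.0268), and Ndufa5, an accessory subunit of complex I, 1.24 on the log2 scale (adjusted p = 0.0434). CAL-101 mouse 1 is the highest of the 6 for Atp5b and Ndufa4. The nuclear members together made up 1.73, 1.10 and 1.34% of non-mitochondrial UMIs in CAL-101 mice and 0.954, 0.992 and 0.978% in control mice, 70 of 79 fold changes were positive with a median of 0.50, and 40 members (50.6%) did not overlap, beside 32.8% of all genes. Marker levels moved with this: neutrophil markers summed to 40089, 19640 and 21582 CPM in CAL-101 mice and 44730, 67738 and 42179 CPM in control mice, and T cell markers to 1662, 1467 and 1558 CPM in CAL-101 mice and 799.7, 600.1 and 659.8 CPM in control mice. Their part in the result was not tested. The cluster held as few as 29 cells in a mouse.

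Read across the 12 clusters, some members kept 1 direction. Cox7a2l had a negative fold change in 12 of 12 and was called in 5, and Atp5l, a membrane subunit of ATP synthase, in 12 of 12 with 2 calls. Uqcrfs1 and Ndufa6 were negative in 11 of 12, with 4 and 3 calls, and Atp5g2 in 10, with 3. Ndufa4 was positive in 11 of 12 and called in 4, and Ndufc1, mt-Nd2 and mt-Nd3 were positive in 12 of 12 with 1, 2 and 1 calls. mt-Co1 was negative in 11 of 12, with 3 calls. These members were picked after their counts were seen, and no such counts were made over all genes. The clusters also share their mice, so the counts are a description.

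**Figure D5:**
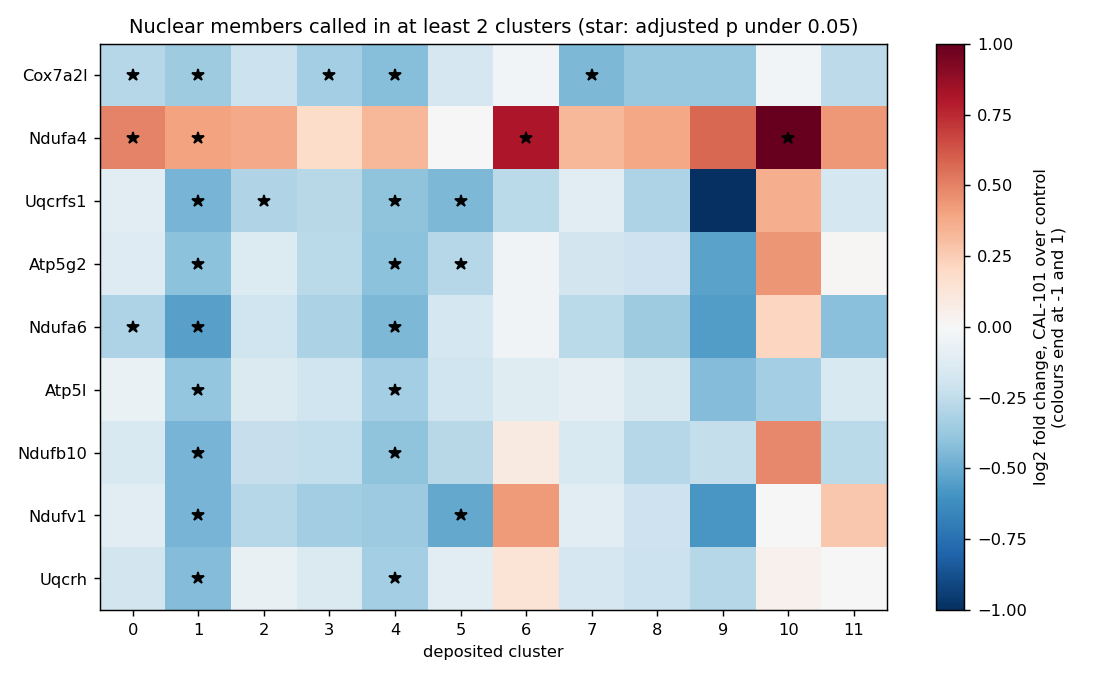
Log2 fold change, CAL-101 over control mice, of the nuclear members called in at least 2 clusters, by deposited cluster, with a star where the adjusted p is under 0.05 and colours that end at -1 and 1. Ndufa4 is positive in 11 of 12 clusters, and Cox7a2l and Atp5l are negative in all 12.

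Genes around the chain were read from lists in the same T cell fit, where 17.3% of all genes passed. Of 41 other assembly factors 2 rose and 5 fell (median 0.07). Taco1, the translational activator of COX1, averaged 15.7 ± 2.04 CPM in CAL-101 mice and 22.0 ± 2.07 CPM in control mice (SD, n = 3 each; -0.54, adjusted p = 0.0127 by edgeR). Coa3 and Cox14, whose products bind newly made COX1, went opposite ways: Coa3 rose (0.31, adjusted p = 0.0354) and Cox14 fell (-0.20, adjusted p = 0.0305). Of 26 electron carriers and partners, Coq8a, needed for coenzyme Q synthesis, rose (19.1 ± 1.96 CPM in CAL-101 mice and 12.5 ± 2.02 CPM in control mice, 0.56, adjusted p = 0.0177) and Coq10a fell (-0.30).

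Of 26 genes of mitochondrial transcription and mRNA handling 2 rose and 0 fell (median 0.10). These were Tfam, which packages and helps transcribe mitochondrial DNA, at 41.9 ± 1.28 CPM in CAL-101 mice and 31.6 ± 1.52 CPM in control mice (0.36, adjusted p = 0.00839 by edgeR), and Ssbp1, the single-strand DNA-binding protein (0.20, adjusted p = 0.034). Of 10 nuclear regulators 1 rose, Gabpb1, a subunit of the ETS-family complex GABP, at 103 ± 4.08 CPM in CAL-101 mice and 76.2 ± 2.75 CPM in control mice (0.38, adjusted p = 0.00378). Of 18 genes of the tricarboxylic acid cycle 1 fell, Pcx, pyruvate carboxylase (-0.42, adjusted p = 0.0176). Of 78 mitochondrial ribosomal protein genes 5 rose and 0 fell (median 0.07), among them Mrpl49 (0.37) and Mrpl53 (0.32). Of 85 cytosolic ribosomal protein genes 0 rose and 23 fell (median -0.16), among them Rpl29 (-0.36) and Rpl24 (-0.33), and together these genes made up 21.6, 21.7 and 21.8% of non-mitochondrial UMIs in CAL-101 mice and 23.5, 23.7 and 23.5% in control mice.

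In NK cells, where 1.58% of genes passed, the lists gave 4 calls. Coa3 (0.42, adjusted p = 0.033 by edgeR) and Cox17, the copper chaperone of complex IV (180 ± 6.76 CPM in CAL-101 mice and 126 ± 20.1 CPM in control mice, 0.49, adjusted p = 0.0464), rose among 41 assembly factors. Mrpl36 (0.39, adjusted p = 0.0419) rose among 78 mitochondrial ribosomal protein genes, and Rps27l (0.53, adjusted p = 0.0226) among 84 cytosolic ones. The cytosolic list as a whole leaned lower, with a median of -0.13 and 12 of 84 positive. At an unadjusted p under 0.05 by edgeR 5 of its genes were higher and 30 lower. The mitochondrial ribosomal list had a median of 0.11, with 19 higher and 1 lower, and the assembly factors had 5 higher and 5 lower. The carrier, transcription, regulator and tricarboxylic acid cycle lists had 0 calls by edgeR in NK cells, with 3, 2, 1 and 4 genes higher and 1, 0, 0 and 1 lower at an unadjusted p under 0.05, which 17.7% of all genes passed either way.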

How the data were processed

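Each library was 1 mouse. The deposited matrices hold UMI counts per cell and gene, unscaled, made by the authors with Cell Ranger 7.1.0, as the headers of the files state. The build mm10 and the tool Seurat are named in the submitters' processing notes. The sources used here do not give the annotation, the cell calling, the filters on cells or how clusters and labels were made, and no deposited cell had under 500 UMIs. Surface protein tags were not used here, and 0 columns of per-sample values were unmapped.

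Counts were summed per mouse and tested with edgeR 4.0.16 quasi-likelihood in R 4.3.3 (TMM, filterByExpr, group as the only term, Benjamini-Hochberg over all genes tested, threshold 0.05). A cluster was tested if each mouse gave 20 or more of its cells. Left out were cluster 12, rich in melanoma markers and with as few as 6 cells in a mouse, and cluster 13, with as few as 3. Differences between T and NK cells used limma 3.58.1 on log2 CPM (prior count 2). The alternative test was DESeq2 1.42.0. Shares and figures were made in Python 3.11.15 (numpy 2.4.6, pandas 2.3.3, matplotlib 3.10.9). No doublet caller was run; the 5% of cells with most UMIs were left out as an alternative.

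The members, lists, cell sets and tests were chosen with earlier results of these data known. Named members are those called, the mitochondrial members, the 3 most abundant nuclear members of each complex, the Sdh genes, paralog sets, and up to 4 called genes per cluster or list by smallest p; others named for their ratio between clusters or their count over clusters were chosen after their values were seen. The ribosomal list was narrowed after seeing the data, by leaving out the kinases whose symbols begin with Rps6k. In simulated T cell counts (16254 genes) the test recovered 82% of genes with a log2 change of 1 and 2% at 0.3, with 7 false calls. In simulated NK counts (13309 genes) it recovered 88% and 10%, with 16 false calls. Replicates differed by more than sampling noise (chi-square per degree of freedom 4.69 to 47.0).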

Additional observations from a re-analysis of the deposited data

How the results depend on the processing

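No member called in T cells, in NK cells or in a single cluster changed sign in the alternatives in which it was fitted. The mice were treated as unpaired. Same-numbered mice had correlations of their deviations from -0.239 to 0.0187, and differently numbered mice from -0.173 to 0.295. These few correlations cannot show whether the numbers mark a shared batch. With the number as a replicate block, 0 nuclear and 0 mitochondrial members passed in T cells (6 and 1 without it), 1 and 0 in NK cells (0 and 1), and 18 nuclear calls over the clusters (39). Leaving out 1 mouse gave 0 to 17 nuclear and 0 to 4 mitochondrial members in T cells, 0 to 14 and 0 to 6 in NK cells, and 6 to 75 nuclear and 1 to 57 mitochondrial calls over the clusters; each highest count is without control mouse 2, and the 6 is without control mouse 3. DESeq2 called 11 nuclear members in T cells, 8 nuclear and 4 mitochondrial in NK cells (beside 3.13% of all genes there), and 16 mitochondrial over the clusters. With no filter on low counts there were 11 nuclear and 6 mitochondrial calls in NK cells and 73 and 33 over the clusters. In T cells mt-Co1 was the lone mitochondrial call, and 0 remained with plain totals, with all cells of the label, or without the 5% of cells with most UMIs. In NK cells all cells of the label gave 5 nuclear and 3 mitochondrial calls, leaving out the 5% gave 4 nuclear, and thinned sums gave 1 and 2. Without cells over 20% mitochondrial or under 1000 UMIs, mitochondrial calls over the clusters were 11 (6). Clusters 2, 3 and 5 alone, a set added after seeing the data, gave 8 nuclear calls in T cells, 2 higher and 6 lower. For T against NK cells 0 members passed in every alternative. Where the share of all genes passing in the same fit is not printed here or above, a count does not separate the members from all genes. Such counts show only how the calls vary with the processing. Causes were not tested. Depth limits members under about 1 CPM.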
